A study of Mus musculus with 26 samples.

Results

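The phagocyte NADPH oxidase was described by 6 of its genes, Cybb, Cyba, Ncf1, Ncf4, Rac1 and Rac2, among the 52636 genes measured by RNA sequencing in 26 libraries of mouse bone marrow cells. The genes were chosen by symbol as subunits of the complex and not by their values. Each symbol matched 1 Ensembl identifier in the deposited tables, and all 6 genes passed the filter on low counts in every comparison. Libraries came from wild-type mice (WT in the labels) and from mice without NSP4 (NSP4 KO, here Prss57-/-), the serine protease that Prss57 encodes, in which exon 2 of the gene was deleted in C57BL/6N embryonic stem cells. Wild-type littermates matched for age served as controls, and the age of the mice sequenced is not given in the sources used here. Granulocyte-macrophage progenitors (GMPs, sorted as Lin-, SCA-1-, CD117+, CD34+ and CD16/32hi) and common myeloid progenitors (CMPs, the same gate but CD16/32lo) came from female mice, with 4 libraries for each cell type and genotype. Bone marrow-derived mast cells (BMMCs, written BMMC-P3 in the labels) were grown from GMPs in interleukin-3 and stem cell factor, with 5 libraries for each genotype, all from male mice. GMPs and CMPs were sequenced in a single run and BMMCs in another, so that between BMMCs and progenitors the cell type cannot be told apart from sex or run. The study calls the libraries of a group biological replicates, and whether each library came from a single mouse or from pooled mice is not given in the sources used here.

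The oxidase of neutrophils and macrophages passes electrons from NADPH across the membrane to oxygen and so makes superoxide for the killing of microbes. Cybb encodes NOX2 (gp91phox), the catalytic subunit, which sits in the membrane as a heterodimer with p22phox, the product of Cyba. On activation, p47phox (Ncf1), which organizes the complex, p40phox (Ncf4), which binds a phosphoinositide of the phagosome membrane, and a GTP-bound Rac protein move from the cytosol to the heterodimer. Rac1 is made in nearly all cells, whereas Rac2 is the Rac protein of blood cells. Inherited loss of NOX2, p22phox or p47phox causes chronic granulomatous disease.

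The genes lie at several places in the mouse genome (GRCm38, GENCODE M21 annotation). Cybb (ENSMUSG00000015340) extends over chrX:9435252-9487771 on the reverse strand, Cyba (ENSMUSG00000006519) over chr8:122424776-122432930, reverse, and Ncf1 (ENSMUSG00000015950) over chr5:134220053-134229625, reverse. Rac1 (ENSMUSG00000001847) is on the same chromosome as Ncf1 at chr5:143503634-143528036, reverse. Ncf4 (ENSMUSG00000071715) at chr15:78244801-78262580, forward, and Rac2 (ENSMUSG00000033220) at chr15:78559167-78572783, reverse, share chromosome 15. Cyba is the shortest of them, with 1039 exonic bases against 2020 in Ncf4, 3103 in Rac2, 3663 in Ncf1, 4496 in Rac1 and 5808 in Cybb. Cyba overlaps Gm20388, Ncf1 overlaps Gtf2ird2 and Rac1 overlaps Daglb and Gm42502, each on the opposite strand. The library kit keeps the strand, but whether the counting used it is not given in the sources used here, so that reads of these overlaps may belong to either gene.

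RefSeq promoter sequences (GRCm38.p6, from 250 bases before to 50 after the annotated start) were matched for 3 of the 6 genes. They are shown because no other subunit had a matched sequence. Of the 3, Cybb and Ncf1 were higher in GMPs than in CMPs, whereas Cyba did not pass that test. The capitals mark GAGGAA on either strand, the core bound by PU.1, a myeloid transcription factor encoded by Spi1. The windows are chrX:9469275-9469574, chr5:134229576-134229875 and chr8:122432891-122433190, all on the reverse strand and printed 5′ to 3′.
Cybb: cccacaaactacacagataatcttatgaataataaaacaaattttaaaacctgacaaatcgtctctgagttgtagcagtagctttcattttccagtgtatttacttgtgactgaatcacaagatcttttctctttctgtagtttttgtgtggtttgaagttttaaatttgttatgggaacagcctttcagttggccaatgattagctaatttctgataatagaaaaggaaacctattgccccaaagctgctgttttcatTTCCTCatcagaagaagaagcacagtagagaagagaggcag
Ncf1: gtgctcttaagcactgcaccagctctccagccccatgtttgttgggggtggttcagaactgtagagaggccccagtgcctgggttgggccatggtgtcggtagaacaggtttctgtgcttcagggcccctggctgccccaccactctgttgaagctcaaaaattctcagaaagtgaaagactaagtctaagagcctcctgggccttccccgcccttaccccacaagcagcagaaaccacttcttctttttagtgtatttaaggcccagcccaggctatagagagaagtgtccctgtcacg
Cyba: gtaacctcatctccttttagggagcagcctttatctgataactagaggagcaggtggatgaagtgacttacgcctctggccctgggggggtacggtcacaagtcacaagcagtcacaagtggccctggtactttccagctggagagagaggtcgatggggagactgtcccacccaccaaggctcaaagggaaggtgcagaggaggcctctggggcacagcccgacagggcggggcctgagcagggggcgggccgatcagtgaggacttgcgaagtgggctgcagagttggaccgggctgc
The core occurred once, in the Cybb window, starting 9 bases after the first base of the transcript on the strand opposite to the gene, and was not among the letters of the Ncf1 and Cyba windows. Of all 32851 RefSeq windows of this length, 9289 (28.3%) held it. The Cybb window also held CCAAT at -56, found in 37.4% of all windows, and AGATAA at -236, found in 11.2%, and the Cyba window held AGATAA at -220 on the opposite strand. These matches describe letters only, and no binding was measured.

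The libraries held 32078404 to 53264762 reads on genes in progenitors and 18627626 to 28647216 in BMMCs. Prss57 checked the labels, with 18064 to 26556 reads in wild-type GMPs and 6 to 25 in Prss57-/- GMPs, and 2261 to 3926 reads in wild-type CMPs and 1 in each Prss57-/- CMP library. In BMMCs it was low, with 2 to 27 reads in wild-type libraries and 0 in each Prss57-/- library, library 3 included. Sorted cells carried their markers, with 8 GMP markers summing to 25934 to 37941 normalized RPKM in GMPs, 4196 to 9964 in CMPs and 1304 to 2915 in BMMCs. The 10 CMP markers summed to 2043 to 4170 in CMPs, 383 to 499 in GMPs and 1764 to 3347 in BMMCs, which share Kit and Gata2 with that list. BMMC libraries other than Prss57-/- library 3 also held Pf4 (497 to 826), Itga2b (222 to 414) and Cd34 (133 to 262) of that list. There, Klf1, Epor and Car1 reached at most 0.367, 0.385 and 0.0382. The 4 B cell markers summed to at most 51.2 in any library. The 9 mast cell markers summed to 25513 to 75392 in BMMCs, 465 to 703 in GMPs and 149.9 to 174 in CMPs. BMMC libraries other than Prss57-/- library 3 also held all 11 markers of macrophages and dendritic cells (Csf1r, Adgre1, C1qa, Cd74 and others), summing to 1927 to 3130 normalized RPKM against 117 to 151 in GMPs. Prss57-/- BMMC library 3 stood apart from these 9 libraries, with a sum of 210.1 for that list, all 11 markers below the range of the others, and a mast cell sum of 75392, the highest of all.

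Levels were compared between genes as normalized RPKM, the authors' count per gene length after adjustment by a size factor. In wild-type GMPs, Cyba was the most abundant at 441 ± 111 (SD, n = 4, as for all progenitor groups), followed by Rac2 at 250.1 ± 13.9, Ncf1 at 116 ± 12.5, Ncf4 at 80.1 ± 4.36, Rac1 at 53.7 ± 2.30 and Cybb at 15.3 ± 1.53. The libraries of neighbours in this order did not overlap. In wild-type CMPs the order was Cyba (364 ± 94.1), Rac2 (122 ± 8.14), Rac1 (52.6 ± 1.96), Ncf4 (33.9 ± 3.51), Ncf1 (30.3 ± 3.44) and Cybb (1.54 ± 0.363), and only Ncf4 and Ncf1 overlapped among neighbours. In wild-type BMMCs Cybb followed Ncf1, with Cyba at 885 ± 110.2 (SD, n = 5), Rac2 at 355 ± 25.0, Ncf1 at 199 ± 15.9, Cybb at 159 ± 28.9, Ncf4 at 102 ± 14.1 and Rac1 at 63.7 ± 2.87. There, Ncf1 overlapped Cybb, and Cybb overlapped Ncf4. Cybb thus took 0.265% of the summed level of the 6 genes in wild-type CMPs, 1.62% in wild-type GMPs and 8.97% in wild-type BMMCs.

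**Figure D1:**
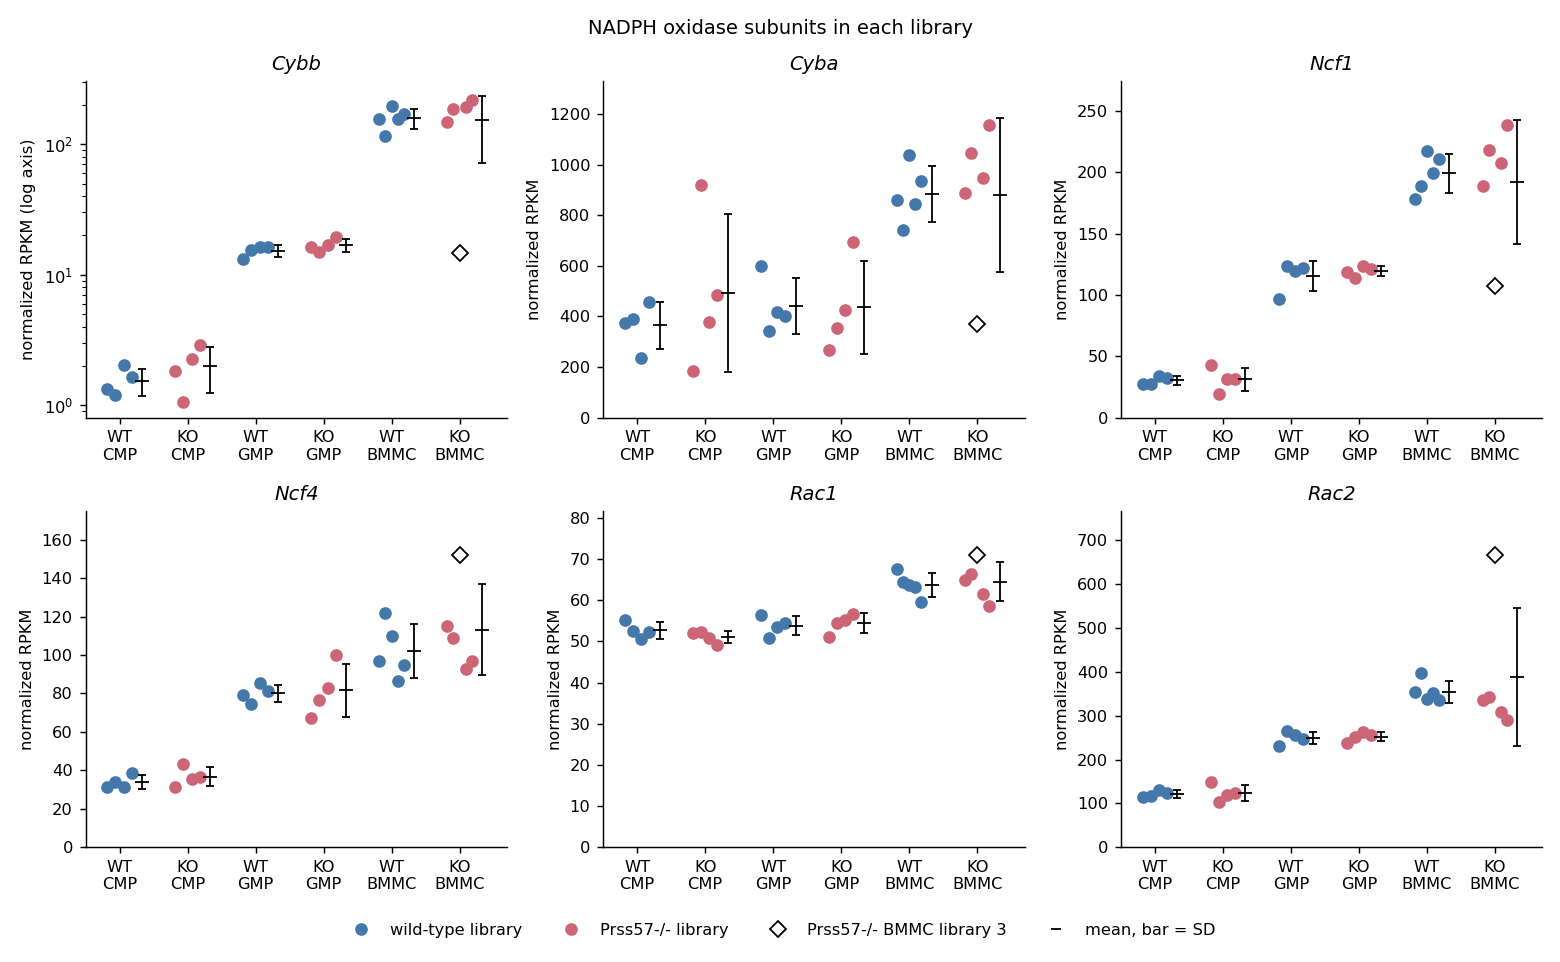
Normalized RPKM of each subunit in each of the 26 libraries (y axis, logarithmic for Cybb only) by group, with points for libraries and black marks for the mean and SD. Cybb rises in steps from 1.05 to 2.89 in CMPs over 13.1 to 19.4 in GMPs to 116 to 219 in BMMCs other than Prss57-/- library 3 (open diamond, 14.6), whereas Rac1 stays between 49.1 and 71.1 in every library.

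The first comparison asked whether loss of NSP4 changed the subunits within a cell type. No subunit passed the threshold (edgeR's quasi-likelihood test, adjusted p under 0.01 with a change of 2-fold or more) in GMPs, CMPs or BMMCs, and none had an unadjusted p under 0.05. Over all genes tested, the called share was 0.00681% of 14689 genes in GMPs, 0.0067% of 14916 in CMPs and 0% of 13938 in BMMCs. With edgeR, 119, 76 and 332 of these genes in turn had an unadjusted p under 0.05. In each cell type that is a smaller share than 0.05, so that its absence among 6 subunits carries little weight. In GMPs and CMPs the single gene called was lower in Prss57-/- cells, as were the reads of the deleted gene, Prss57, given above. With at least 10 counts required in every library, no gene was called in either. DESeq2 and limma voom called no subunit either. The wild-type and Prss57-/- libraries of every subunit overlapped in each cell type, while 0.994%, 0.818% and 0.717% of all genes did not overlap in GMPs, CMPs and BMMCs.

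For the catalytic subunit, Cybb was 13.1, 15.6, 16.4 and 16.2 normalized RPKM in wild-type GMP libraries 1 to 4, and 16.3, 14.8, 17.0 and 19.4 in Prss57-/- libraries 1 to 4. Library 4 of the Prss57-/- GMPs was the highest, and the genotypes shared most of their range. The log2 fold change of Prss57-/- over wild type was 0.14 (SE 0.12, 95% interval -0.12 to 0.40). In CMPs Cybb was 1.32, 1.20, 2.01 and 1.64 in wild-type and 1.83, 1.05, 2.26 and 2.89 in Prss57-/- libraries, from 140 to 704 reads. Its log2 fold change of 0.36 had a wide interval, from -0.34 to 1.06.

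Its membrane partner Cyba varied far more between libraries of a group. It was 600.1, 344, 419 and 400.3 normalized RPKM in wild-type GMPs and 267, 356, 426 and 694 in Prss57-/- GMPs, a log2 fold change of -0.013 (95% interval -0.63 to 0.60). In CMPs it was 373, 391, 235 and 459 in wild-type libraries and 186, 922, 379 and 483 in Prss57-/- libraries. The Prss57-/- CMP libraries thus held both the lowest and the highest progenitor values of Cyba, from 9017 to 19254 reads, and the log2 fold change of 0.41 had an interval of -0.53 to 1.34. Without Prss57-/- CMP library 2 it was -0.077.

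The cytosolic subunits were more even. Ncf1 was 97.1, 124, 119.9 and 122 in wild-type GMPs and 119, 114, 123 and 122 in Prss57-/- GMPs, a log2 fold change of 0.048 (95% interval -0.17 to 0.27). Wild-type GMP library 1 alone lay below the rest. In CMPs Ncf1 was 27.1, 27.7, 34.0 and 32.4 in wild-type and 42.7, 19.5, 31.6 and 31.6 in Prss57-/- libraries, with a log2 fold change of 0.032 (-0.49 to 0.56). Ncf4 was 79.4, 74.7, 85.2 and 81.2 in wild-type GMPs and 67.3, 76.6, 83.0 and 99.9 in Prss57-/- GMPs, and 31.4, 33.9, 31.4 and 38.8 in wild-type CMPs and 31.5, 43.1, 35.5 and 36.8 in Prss57-/- CMPs. Its log2 fold changes were 0.030 (-0.25 to 0.31) in GMPs and 0.094 (-0.23 to 0.42) in CMPs.

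The Rac proteins, the GTPases of the complex, had the narrowest intervals in GMPs. Rac2 was 232, 264, 257 and 247 in wild-type GMPs and 238, 252, 263 and 256 in Prss57-/- GMPs, with a log2 fold change of 0.016 (95% interval -0.17 to 0.21). In CMPs Rac2 was 114, 116, 132 and 125 in wild-type and 148, 102, 119 and 125 in Prss57-/- libraries, a log2 fold change of 0.0059 (-0.38 to 0.39). Rac1 was 56.3, 50.8, 53.5 and 54.3 in wild-type GMPs and 51.1, 54.6, 55.2 and 56.7 in Prss57-/- GMPs, a log2 fold change of 0.019 (-0.17 to 0.21). It was 55.3, 52.4, 50.6 and 52.2 in wild-type CMPs and 52.0, 52.2, 50.7 and 49.1 in Prss57-/- CMPs, a log2 fold change of -0.065 (-0.36 to 0.23). The spread of Rac1 was 2.76% to 4.40% of its mean in the progenitor groups, against 25.1% to 63.3% for Cyba.

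**Figure D2:**
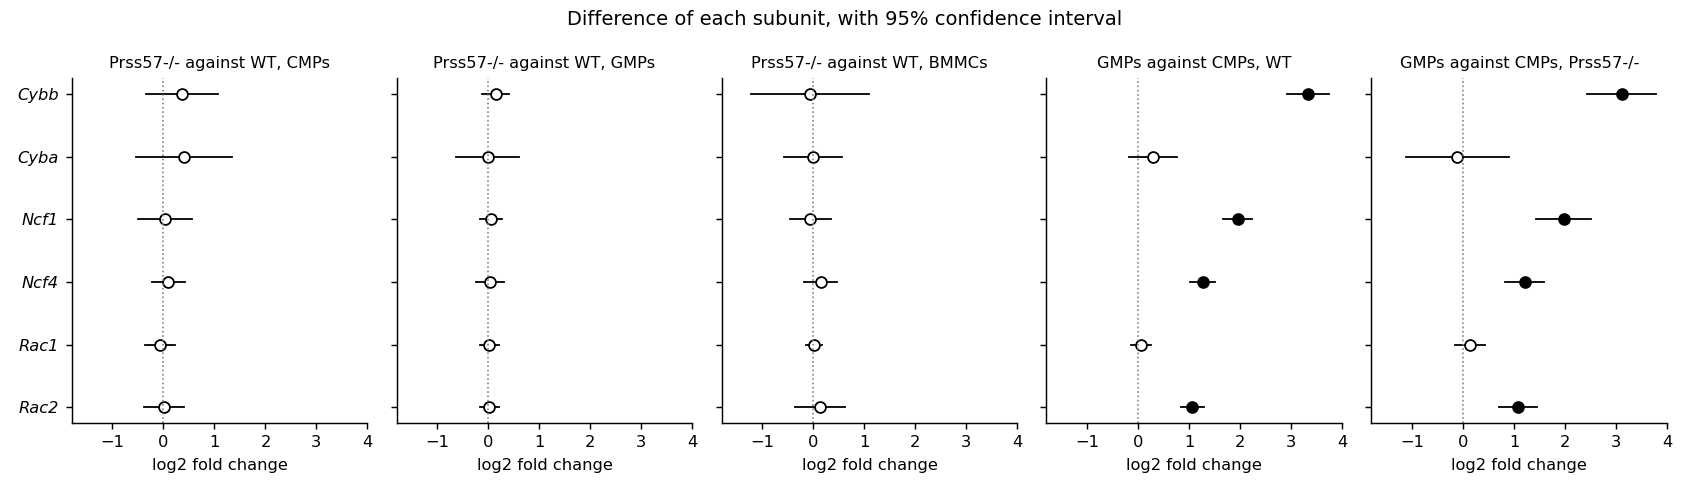
Log2 fold change of each subunit (x axis) with its 95% confidence interval (line) in 5 comparisons, filled where the gene was called (adjusted p under 0.01, 2-fold or more). The genotype panels hold no filled point and every interval in them spans 0, whereas Cybb, Ncf1, Ncf4 and Rac2 are filled and to the right of 0 in both panels of GMPs against CMPs.

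The second comparison asked how the subunits differ between the progenitor stages. Cybb, Ncf1, Ncf4 and Rac2 were higher in GMPs than in CMPs in both genotypes, whereas Cyba and Rac1 did not pass the test. In wild-type cells 4 of 6 subunits were called, all higher in GMPs, where 12.8% of 14967 genes were called and 6.28% were called higher in GMPs. In Prss57-/- cells the same 4 genes were called, against 8.42% of 14959 genes called and 4.04% called higher. These contrasts share no library. In both genotypes every GMP library lay above every CMP library for those 4 genes, as 31.5% of all genes did not overlap in wild-type and 28.5% in Prss57-/- cells. In such bulk samples, fewer cells of a type and less RNA per cell cannot be told apart.

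Cybb differed the most of the 6. In wild-type cells it went from 1.20 to 2.01 normalized RPKM in CMPs to 13.1 to 16.4 in GMPs, 10.0-fold higher (log2 fold change 3.32, SE 0.19, edgeR adjusted p = 1.29e-06). In Prss57-/- cells it was 8.62-fold higher (log2 fold change 3.11, SE 0.30, edgeR adjusted p = 2.19e-04). Ncf1 was 3.86-fold higher in wild-type GMPs (log2 fold change 1.95, SE 0.13, edgeR adjusted p = 3.11e-06) and 3.92-fold higher in Prss57-/- GMPs (1.97, SE 0.24). Ncf4 was 2.39-fold higher (1.26, SE 0.11) and 2.30-fold higher (1.20, SE 0.17). Rac2 stood nearest to the fold limit, 2.08-fold higher in wild-type (1.06, SE 0.10) and 2.11-fold higher in Prss57-/- GMPs (1.07, SE 0.17, edgeR adjusted p = 0.00216). When counts were scaled by library size only, its log2 fold changes were 0.92 and 1.00 and neither contrast called it. Its call in Prss57-/- cells was also lost without GMP library 2 or 3 or CMP library 2, 3 or 4, with log2 fold changes of 0.98 to 1.08.

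The subunits that did not pass gave different intervals. Rac1 had log2 fold changes of 0.049 (95% interval -0.15 to 0.24) in wild-type and 0.14 (-0.15 to 0.43) in Prss57-/- cells, so that a change of 2-fold lay outside both. Cyba had 0.29 (-0.18 to 0.77) in wild-type and -0.11 (-1.13 to 0.90) in Prss57-/- cells, and the latter interval holds a decrease of 2-fold. Whether the stage difference itself differed between genotypes was tested as an interaction in the 16 progenitor libraries. No subunit and 0% of 15900 genes passed an adjusted p under 0.01 with edgeR, DESeq2 or limma voom, and 169 genes had an unadjusted p under 0.05 with edgeR. The interaction of Cybb was -0.23 on the log2 scale (-0.94 to 0.48) and that of Cyba -0.43 (-1.55 to 0.70).

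Some markers of other cells moved with this contrast. The 11 neutrophil markers (Ltf, Camp, Ngp, S100a8 and others) summed to 859 to 5289 normalized RPKM in GMPs and 17.2 to 87.9 in CMPs. S100a8 and S100a9 reached the highest levels in GMPs, up to 2054 and 2064. Ltf, Mmp9 and Ly6g stayed below 1 in every CMP library, but Mmp9 did so in every GMP library too and Ly6g reached only 1.21. Mmp8 (1.57 to 2.69 in GMPs, 0.866 to 2.06 in CMPs), Cxcr2 and Retnlg overlapped between the cell types. The sum of the macrophage and dendritic cell markers overlapped, at 117 to 151 in GMPs and 88.7 to 136 in CMPs. Of its markers, Csf1r (36.8 to 61.0 in GMPs, 12.9 to 32.5 in CMPs), Adgre1, Cd68 and Cd14 were higher in every GMP library than in every CMP library. The other markers of that list overlapped between the cell types. The neutrophil sum was 3377, 2323, 1580.0 and 2470 in wild-type GMP libraries 1 to 4, and 1531, 859, 997 and 5289 in Prss57-/- GMP libraries 1 to 4. The highest sum, in Prss57-/- library 4, went with the highest Cybb of the GMPs (19.4), but the next highest, in wild-type library 1, went with the lowest (13.1). The part of these cells in the result was not tested.

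Ratios within a library do not depend on its scaling. They can still follow differences between short and long genes, and of the 6 genes Cyba is the shortest and Cybb the longest. The ratio of Rac2 to Rac1 was 4.12, 5.20, 4.80 and 4.55 in wild-type GMPs and 2.06, 2.22, 2.60 and 2.38 in wild-type CMPs, 2.02-fold higher in GMPs with no overlap. In Prss57-/- cells it was 4.67, 4.63, 4.77 and 4.52 in GMPs and 2.85, 1.96, 2.34 and 2.54 in CMPs, 1.93-fold higher. Each difference gave an exact two-sided permutation p of 0.0286, the smallest that 4 against 4 libraries allow, and 0.0714 after adjustment over the 10 ratio comparisons. The ratio of Cybb to Cyba, the partners of the membrane heterodimer, was 8.28-fold higher in wild-type and 9.19-fold higher in Prss57-/- GMPs, with the same exact permutation p of 0.0286 and adjusted p of 0.0714. Between genotypes, neither ratio differed beyond the spread of the libraries in any cell type, with exact permutation p-values of 0.571 to 1. In BMMCs the overlap of Rac2 to Rac1 rested on Prss57-/- library 3, without which the ratio was lower in every Prss57-/- library (4.93 to 5.19) than in every wild-type library (5.23 to 6.17), a log2 difference of -0.13 (exact permutation, adjusted p = 0.0571). This is 1 of 10 tests with a BMMC library left out, and the share of all genes that separate in this split was not counted. The macrophage and dendritic cell sum was 2446 to 3130 in these Prss57-/- libraries and 1927 to 2779 in wild-type libraries, and its part was not tested.

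**Figure D3:**
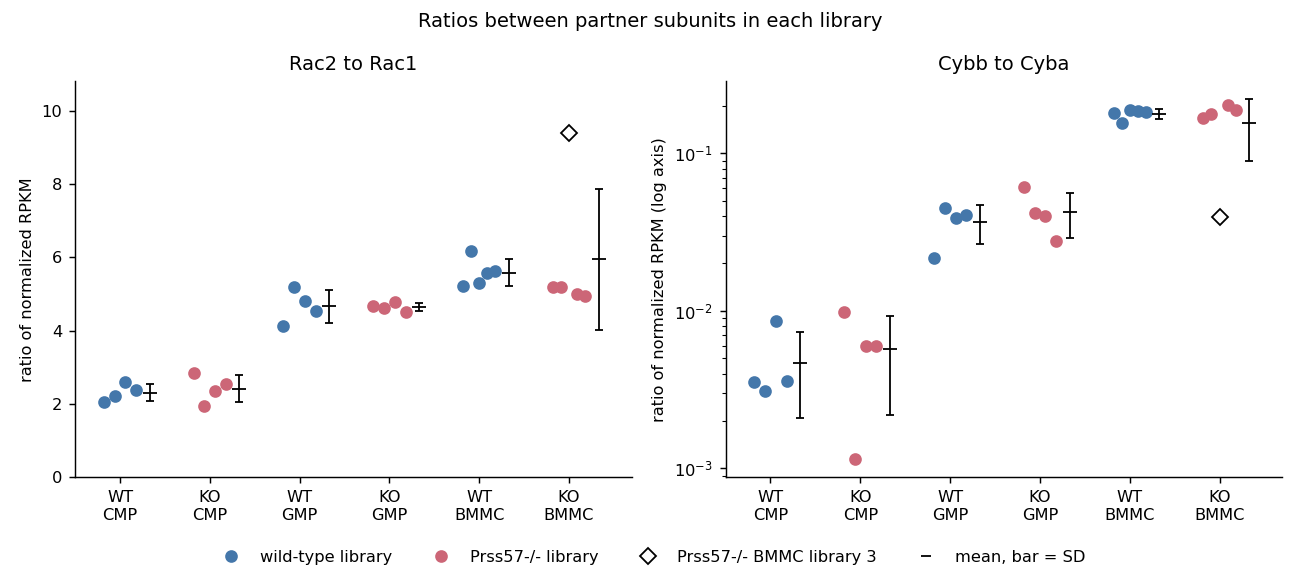
Ratio of normalized RPKM of Rac2 to Rac1 (left, linear y axis) and of Cybb to Cyba (right, logarithmic y axis) in each library by group, with black marks for the mean and SD. GMP libraries lie above all CMP libraries in both ratios, and Prss57-/- BMMC library 3 (open diamond) is at 9.40 for Rac2 to Rac1 and at 0.0396 for Cybb to Cyba, apart from the other BMMC libraries.

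The wide spread of Cyba in progenitors went with a property of whole libraries. For each library a short-gene shift was computed, the median log2 deviation of genes of at most 1200 exonic bases from their level in the libraries of that cell type minus that of genes of 3000 to 6000 exonic bases, with the subunits left out. It ranged from -0.31 to 0.48 in GMPs, from -0.72 to 1.09 in CMPs and from -0.04 to 0.05 in BMMCs. The lowest and highest were Prss57-/- CMP libraries 1 and 2, which also held the lowest and the highest Cyba of all progenitors, 186 and 922. Their ratios of Cybb to Cyba, 0.00985 and 0.00114, were the highest and the lowest of the CMPs. Across the 8 GMP libraries, Cyba and the shift had r = 0.96 (exact permutation p = 0.00352, adjusted 0.0137 over 12 such relations) and rho = 0.88 (p = 0.00724, adjusted 0.0290, exact permutation). Across the 8 CMP libraries r was 0.99 (p = 3.97e-04, adjusted 0.00476, exact permutation) and rho 0.93 (p = 0.00223, adjusted 0.0134, exact permutation). Without the 2 libraries farthest from the median shift, r was still 0.92 in GMPs and 0.98 in CMPs. With 1039 exonic bases Cyba is itself of the class of short genes whose median defines the shift. A rise with the shift is what that median describes for the class, and the part of the length of Cyba was not tested. How many other short genes gave such an r was not counted, and the p-values do not single out Cyba.

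The longer subunits differed among themselves. Ncf1 and Rac2 ran against the shift in CMPs (r = -0.92 and -0.89, each with an adjusted exact permutation p of 0.0137), but r dropped to -0.43 and -0.54 without the 2 farthest libraries, on which the relation rested. Ncf4 rose with the shift in CMPs (r = 0.87, adjusted exact permutation p = 0.0148) and had r = 0.65 without those libraries, while in GMPs it had r = 0.69 (adjusted exact permutation p = 0.110) and 0.88 without the 2 farthest. Rac1 rose with the shift in GMPs (r = 0.85, adjusted exact permutation p = 0.0137, rho = 0.95, and r = 0.82 without the farthest 2) over a narrow range of 50.8 to 56.7 normalized RPKM, but had r = 0.13 in CMPs (adjusted exact permutation p = 0.800). Cybb showed no relation that passed in either cell type, with r = -0.095 and -0.48 and adjusted exact permutation p-values of 0.816 and 0.303. By their lengths Cybb, Ncf1, Rac1 and Rac2 are of the class of longer genes that defines the shift, and Ncf4 is of neither class. These relations were looked for after the values were seen, and the part of the shift in the subunits' levels was not tested.

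**Figure D4:**
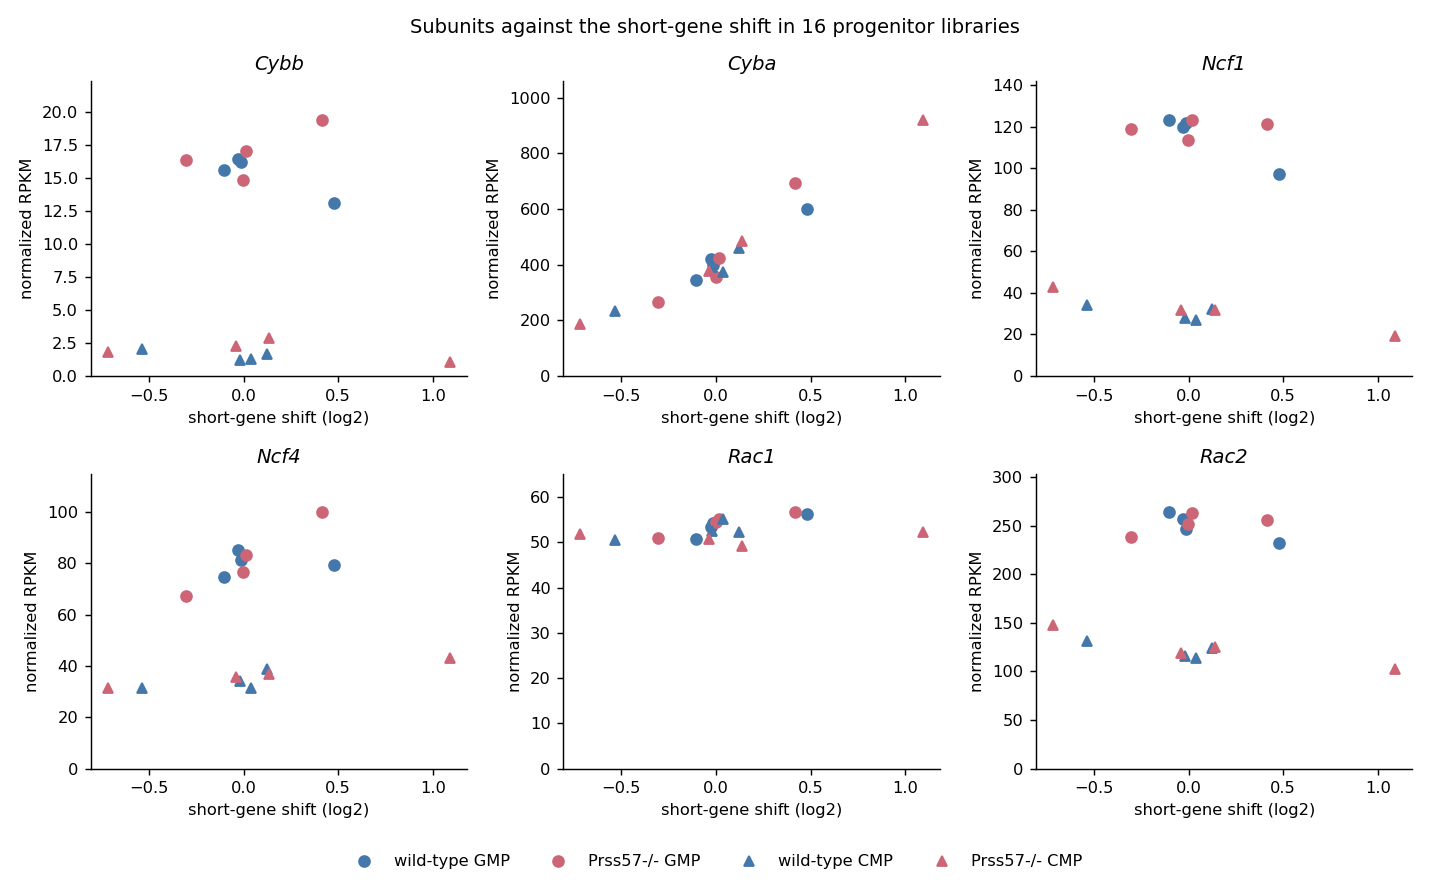
Normalized RPKM of each subunit (y axes, linear) against the short-gene shift (x axes, log2) in the 16 progenitor libraries, circles for GMPs and triangles for CMPs. Cyba rises with the shift along a single line that GMPs and CMPs share, from 186 to 922, while Cybb, Ncf1, Ncf4 and Rac2 separate GMPs from CMPs and Rac1 lies between 49.1 and 56.7 in all 16.

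In BMMCs, Cybb was 155, 116, 196, 157 and 171 normalized RPKM in wild-type libraries 1 to 5 and 149, 188, 14.6, 192 and 219 in Prss57-/- libraries 1 to 5. Prss57-/- library 3 lay 12.7-fold below the mean of the other 4 Prss57-/- libraries (187 ± 29.0, SD), while all others overlapped. The log2 fold change was -0.069 (95% interval -1.23 to 1.09), and 0.23 without library 3 (edgeR adjusted p = 0.788). Cyba was 859, 743, 1039, 846 and 935 in wild-type and 887, 1047, 369, 948 and 1157 in Prss57-/- libraries, with library 3 at 2.73-fold below the mean of the other 4. Ncf1 was 179, 189, 218, 199 and 211 in wild-type and 189, 218, 107, 208 and 239 in Prss57-/- libraries, with library 3 at 1.99-fold below.

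Library 3 went the other way for the remaining subunits. Ncf4 was 96.9, 122, 109.9, 86.4 and 94.6 in wild-type and 115, 109, 152, 92.6 and 97.1 in Prss57-/- libraries. Rac2 was 354, 398, 338, 352 and 336 in wild-type and 336, 344, 668, 308 and 289.6 in Prss57-/- libraries, where library 3 was 2.09-fold above the mean of the others. Rac1 was 67.6, 64.4, 63.6, 63.1 and 59.6 in wild-type and 64.9, 66.3, 71.1, 61.6 and 58.7 in Prss57-/- libraries. For all 6 subunits library 3 lay outside the range of the other 9 BMMC libraries, below it for Cybb, Cyba and Ncf1 and above it for Ncf4, Rac1 and Rac2. The share of all genes outside that range in library 3 was not counted, so that this cannot be called particular to the subunits. Without library 3, the log2 fold changes of Prss57-/- over wild type turned to 0.19 for Cyba, 0.095 for Ncf1, -0.024 for Rac1 and -0.16 for Rac2. With or without it no subunit was called.

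This library differed in cell type markers as well. Of the macrophage and dendritic cell list, Csf1r, the receptor for the macrophage growth factor, was 12.3 normalized RPKM against 106 to 176 in the other 9 BMMC libraries, and the complement gene C1qb 36.4 against 387 to 606. Of the mast cell list, 6 of 9 markers lay above the others, among them the chymase gene Cma1 (14490 against 1565 to 3836) and the carboxypeptidase gene Cpa3 (29822 against 10304 to 16854), whereas the tryptase gene Tpsab1 (13.3 against 513 to 1178) and Hdc lay below. Of the CMP list, 8 of 10 markers lay above the other BMMC libraries, among them Gata1 (165 against 31.1 to 51.7) and Kit, which is on the mast cell list too. Klf1 was above by little and near 0 (0.382 against at most 0.367), Car1 was 0, and Pf4 lay below (72.3 against 497 to 826). Of the neutrophil list 7 of 11 lay below, with a sum of 49.4 against 166 to 421. Among the 9 other BMMC libraries, where the macrophage and dendritic cell sum ran from 1927 to 3130, it went with Cybb (r = 0.81, exact permutation p = 0.00902, rho = 0.75), Cyba (r = 0.78, exact permutation p = 0.0134, rho = 0.85) and, with the opposite sign, Rac2 (r = -0.80, exact permutation p = 0.00664, rho = -0.77). After adjustment over 12 relations of subunits with marker sums, each of these r had p = 0.0537 by exact permutation and missed 0.05, and the adjusted exact permutation p of rho was 0.102, 0.0729 and 0.102. Without the 2 libraries farthest from the median sum, r was 0.66, 0.78 and -0.55. The mast cell sum ran the other way in the same 9 libraries, with r = -0.67 for Cybb (exact permutation p = 0.0441, adjusted 0.106, rho = -0.67) and 0.71 for Rac2 (exact permutation p = 0.0324, adjusted 0.0972, rho = 0.62), and r = -0.78 and 0.72 without the farthest 2. The part of these cells in the subunits' levels was not tested.

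**Figure D5:**
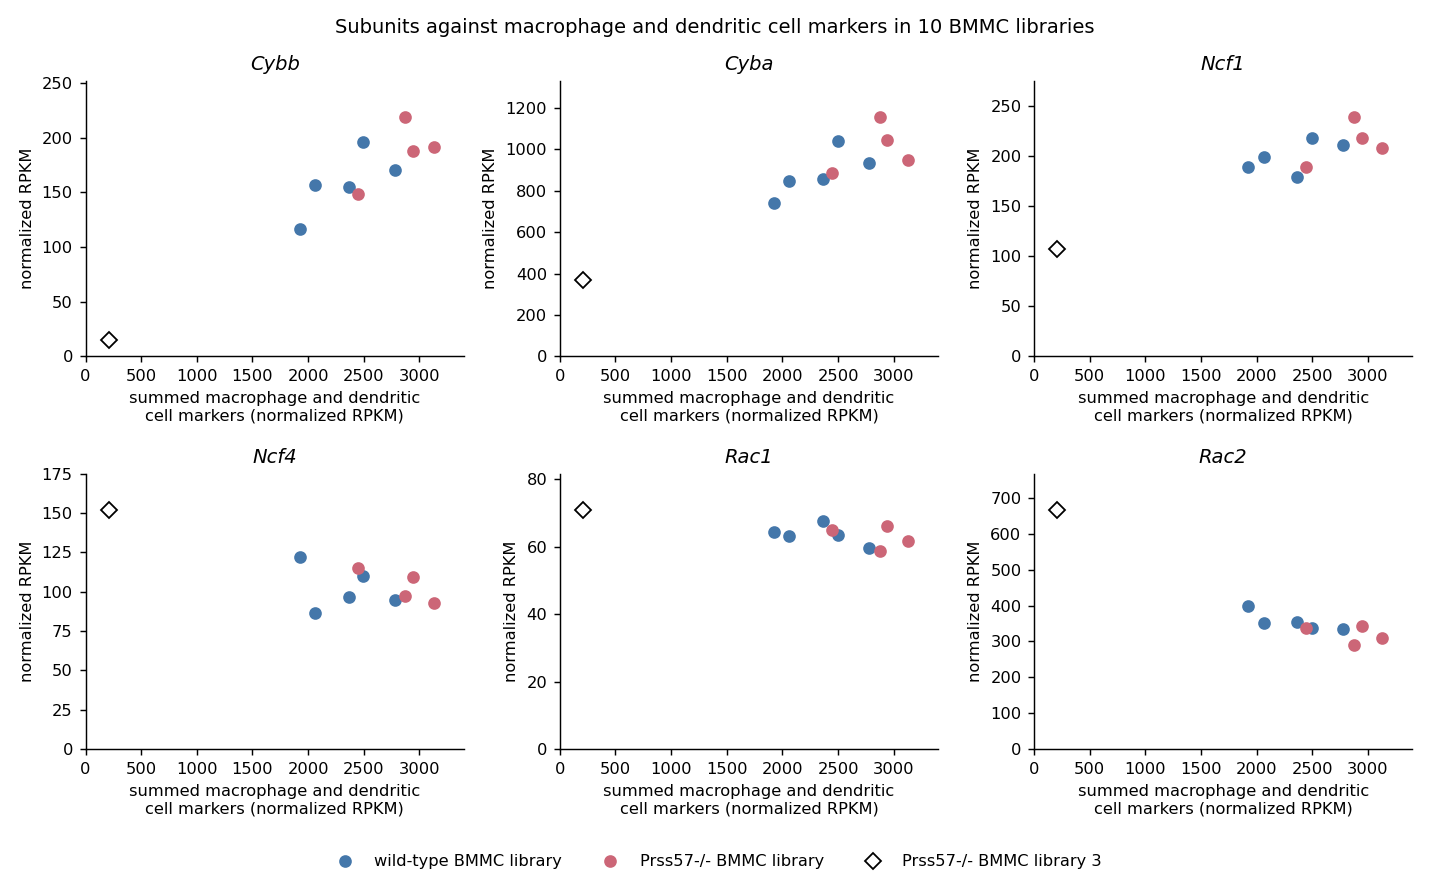
Normalized RPKM of each subunit (y axes) against the summed normalized RPKM of 11 macrophage and dendritic cell markers (x axes) in the 10 BMMC libraries, all axes linear from 0. Prss57-/- library 3 (open diamond) is at 210.1 on the x axis, far left of the others at 1927 to 3130, with the lowest Cybb, Cyba and Ncf1 and the highest Ncf4, Rac1 and Rac2.

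Against GMPs, the cells they were grown from, wild-type BMMCs were higher in all 6 subunits with no overlap between libraries, but 75.3% of all genes did not overlap in this comparison. Only Cybb was called, 9.74-fold higher (log2 fold change 3.28, SE 0.15, edgeR adjusted p = 1.86e-09), where 51.7% of 14754 genes were called and 27.3% were called higher in BMMCs. Cyba was 1.88-fold higher (log2 fold change 0.91, SE 0.16, edgeR adjusted p = 2.03e-04) and was called without wild-type GMP library 1 (log2 fold change 1.10). Ncf1 was 1.61-fold higher (0.69, SE 0.10) and Rac2 1.33-fold (0.41, SE 0.09), both past the adjusted p but under the fold limit. Ncf4 and Rac1 did not pass, with log2 fold changes of 0.25 (edgeR adjusted p = 0.0423) and 0.15 (edgeR adjusted p = 0.0912). In Prss57-/- cells again only Cybb was called, 8.43-fold higher (3.08, SE 0.63, edgeR adjusted p = 0.00141), where 47.9% of 14929 genes were called, 25.6% higher, and 65.0% did not overlap. With the replicate number as a block Cybb was not called there (log2 fold change 2.54, edgeR adjusted p = 0.0299). Without BMMC library 3 its log2 fold change was 3.38 and Cyba (1.12) was called too. The 14.6 of Cybb in library 3 lay within the range of wild-type GMPs, 13.1 to 16.4. Sex and run moved with this comparison as stated above, and so did the macrophage and dendritic cell markers, whose part was not tested.

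Other genes around the oxidase were read from lists of the pathway. Of 11 further oxidase family and assembly genes, most were near 0. Nox1, Nox3 and Nox4, the catalytic subunits of other oxidases, reached at most 0.169, 0.0251 and 0.0888 normalized RPKM in any library, and the dual oxidases Duox1 and Duox2 were listed at 0 in all 26. Hvcn1, the proton channel that balances the charge moved by the oxidase, was called higher in GMPs in both genotypes, at 58.2 ± 4.89 in wild-type GMPs and 8.88 ± 1.34 in wild-type CMPs (log2 fold changes of 2.73, SE 0.14, in wild-type and 2.53, SE 0.30, in Prss57-/- cells). Cybc1, a chaperone of the membrane heterodimer, was 68.7 ± 9.16 in wild-type GMPs and 76.8 ± 12.6 in wild-type CMPs and was not called. Of this list, 1 of 4 genes tested was called in both genotypes, beside 12.8% and 8.42% of all genes, with median log2 fold changes of 0.026 in wild-type and -0.43 in Prss57-/- cells against -0.024 and -0.029 over all genes.

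Of the Rac regulators, 5 of 15 genes tested were called higher and none lower in wild-type GMPs, and 2 of 15 in Prss57-/- GMPs, where 6.28% and 4.04% of all genes were called higher, with median log2 fold changes of 0.91 and 0.95. The exchange factors Tiam1 (log2 fold changes of 2.11 and 1.89) and Dock5 (1.57 and 1.52), which load Rac with GTP, were called in both. The most abundant of the list, the GDP dissociation inhibitors Arhgdib and Arhgdia and the GTPase Rhog, had log2 fold changes of 0.92, 0.63 and 0.87 in wild-type cells, under the fold limit. Of the kinases and lipases upstream of assembly, 4 of 14 were called higher in wild-type and 3 of 14 in Prss57-/- GMPs, none lower, beside the same 6.28% and 4.04% of all genes. Prkcb, a protein kinase C that phosphorylates p47phox, rose by 3.44 and 3.26 on the log2 scale from a low level, 0.288 ± 0.0733 in wild-type CMPs to 3.12 ± 0.655 in wild-type GMPs, and was 188 ± 31.2 in wild-type BMMCs. The phosphoinositide 3-kinase genes Pik3cd (1.35 and 1.30) and Pik3r5 (1.70 and 1.90) were called in both, whereas Akt1 (0.36 and 0.46) and Btk (-0.071 and 0.028) were not. Prkcd was called in wild-type cells alone (1.13 and 1.22). In Prss57-/- cells its edgeR adjusted p of 0.010011 only just missed the limit, and its interaction of 0.084 was not called.

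Of 13 transcription factors with known sites in oxidase genes, 5 were called higher and 2 lower in GMPs in each genotype, where 12.8% of all genes in wild-type and 8.42% in Prss57-/- cells were called. Spi1 (PU.1) was 145 ± 11.7 normalized RPKM in wild-type GMPs and 58.9 ± 9.44 in wild-type CMPs, with log2 fold changes of 1.32 and 1.25 in wild-type and Prss57-/- cells. The C/EBP factors, which act in granulocyte development, Cebpa (1.77 and 1.68), Cebpb (2.33 and 2.33), Cebpd (1.84 and 1.58) and Cebpe (4.15 and 3.29) were higher too, and the erythroid factor Gata1 (-3.06 and -2.92) and Hoxa10 (-4.03 and -3.95) were lower in GMPs. Gata2, the most abundant of the list over the 26 libraries, was not called (-0.19 and -0.047). Against GMPs, Spi1 was 123 ± 10.9 in wild-type BMMCs with a log2 fold change of -0.33, under the fold limit. Of the factors named here, Cebpa (-1.88), Cebpd (-1.73) and Cebpe (-5.80) were called lower and Cebpb (1.26), Gata1 (2.16) and Gata2 (3.37) higher in wild-type BMMCs. In Prss57-/- BMMCs Cebpa (-1.89, SE 0.65) and Cebpb (1.13, SE 0.48) were not called, where the SEs in wild-type cells were 0.14 and 0.16. Their lowest Prss57-/- BMMC values, 2.44 and 29.4, lay far below the means of 47.6 and 156. Of the list, 3 of 12 factors tested were called higher and 5 lower in wild-type BMMCs. In Prss57-/- BMMCs 2 of 13 were called higher and 4 lower. Beside these, 51.7% and 47.9% of all genes were called. Among 12 enzymes that use or remove superoxide and peroxide, 3 were called higher and 1 lower in wild-type GMPs and 2 higher in Prss57-/- GMPs, beside 12.8% and 8.42% of all genes called. Mpo, the myeloperoxidase of azurophil granules that uses the peroxide made from the oxidase's superoxide, was 11987 ± 287 in wild-type GMPs and 2479 ± 610.2 in wild-type CMPs (log2 fold changes of 2.29 and 2.07), and Epx, the eosinophil peroxidase, rose by 6.99 and 6.83. Sod1 (-0.60 and -0.74) and Gpx1 (0.056 and -0.40), a superoxide dismutase and a glutathione peroxidase, were not called. No gene of these lists was called between genotypes in any cell type.

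The genes whose pattern was most like that of a subunit were read as the highest Pearson correlations of log2 CPM among 16758 genes. The libraries fall into cell types, so that such values follow the differences between cell types and are given as a description. Over the 16 progenitor libraries the closest gene to Ncf1 was Rac2 and the closest to Rac2 was Ncf1 (r = 0.997 in both directions), followed by Fes and Man2b1 for Ncf1 and Cdk5rap3 and Tmbim6 for Rac2. The subunit Cybb had r = 0.983 with Ncf1, 0.979 with Rac2 and 0.950 with Ncf4 there, but 0.0544 with its partner Cyba. Closest to Cybb were B4galt6, Rflnb and Lbp (r = 0.995 to 0.996), closest to Ncf4 Rasgrp2, Rhob and AB124611, and closest to Cyba Erp29, Tspo and Cd52 (r = 0.990 to 0.991). Rac1 had no close partner, with r = 0.848 for Ptafr, the highest. Over all 26 libraries the closest to Cybb was Mgl2 (r = 0.992), a lectin of macrophages and dendritic cells, with B430306N03Rik and Gda next. The closest over the 26 libraries were Sorl1, Kif1b and Ikbke for Ncf1, Tcn2, Aldoa and Gpx3 for Ncf4, Papss2, Tent5a and Cd37 for Rac2, Gng5, Rnh1 and Atp6v1c1 for Cyba, and Fam122a, Tusc1 and Cited2 for Rac1 (r = 0.904 for the first).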

How the data were processed

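RNA of 16 sorted progenitor libraries and 10 mast cell culture libraries was sequenced as 50-bp single-end reads after TruSeq Stranded Total RNA preparation. The authors aligned reads with GSNAP in HTSeqGenie to GRCm38 and counted uniquely aligned exon reads. The deposited tables give a count and an RPKM adjusted by the authors' size factor (normalized RPKM) for each of 52636 genes, of which 52403 matched GENCODE M21. Groups came from the labels' genotype and cell type.

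Counts were tested with edgeR 4.0.16 (R 4.3.3; TMM, filterByExpr, robust quasi-likelihood F-test) within the groups compared, with p-values adjusted by Benjamini-Hochberg over every gene tested, and called at adjusted p under 0.01 with a change of 2-fold or more (interaction at adjusted p under 0.01). The study's own analysis used limma voom, run here as an alternative (limma 3.58.1) beside DESeq2 1.42.0. Ratios and correlations used two-sided exact permutation tests (Python 3.11.15, scipy 1.17.1, numpy 2.4.6, pandas 2.3.3, matplotlib 3.10.9). The count test was checked on simulated data. Sums and levels are of normalized RPKM. Other alternatives were RLE and library-size scaling, other low-count filters, non-robust dispersion, a replicate block, all 26 libraries in a single fit, each library left out and a threshold of 0.05 without a fold limit.

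Genes named were the 6 subunits, pathway genes called in both GMP against CMP contrasts or among the 3 most abundant of their list, the 3 genes most like each subunit, and Prss57. Nox1, Nox3, Nox4, Duox1, Duox2, the cell type markers and single pathway genes named beyond that rule were chosen after their values were seen. The subunits and all lists were chosen with earlier results of these data known. A further cytosolic subunit of the complex is not reported here. Promoter sequences came from RefSeq (GRCm38.p6). Depth was 18627626 to 53264762 reads on genes, and no interval on single counts was computed.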

Additional observations from a re-analysis of the deposited data

Results flagged for a closer look

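In groups of 4 or 5 libraries, a library was singled out where its gap to the nearest other library was large against the group's range (Dixon's 95% value). Of 48 groups of levels and ratios 7 held such a library, where chance gives about 1 in 20. The 3 that lie in Prss57-/- BMMC library 3 are Rac2 at 668 normalized RPKM against 289.6 to 344 in the other 4 libraries, the ratio of Rac2 to Rac1 at 9.40 against 4.93 to 5.19, and the ratio of Cybb to Cyba at 0.0396 against 0.168 to 0.202. In wild-type BMMC library 2, Rac2 was 398 against 336 to 354, and the ratio of Cybb to Cyba was 0.156 against 0.181 to 0.189. That library also had the lowest macrophage and dendritic cell sum of the wild-type BMMCs, 1927 normalized RPKM, whose part was not tested. Ncf1 was 97.1 in wild-type GMP library 1 against 119.9 to 124 in the other 3, and that library had the highest short-gene shift of the wild-type GMPs, 0.48 on the log2 scale. Prss57-/- GMP library 4, with a shift of 0.41, had Ncf1 at 122. The ratio of Cybb to Cyba was 0.00858 in wild-type CMP library 3 against 0.00308 to 0.00357 in the others, and that library had the lowest shift of the wild-type CMPs, -0.54. The part of the shift in the flagged Ncf1 value and in this ratio was not tested.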

How the results depend on the processing

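With any single library left out, no subunit was called between genotypes or in the interaction, 4 subunits were called in wild-type GMPs against CMPs, 3 to 4 in Prss57-/- GMPs against CMPs (Rac2 lost), and 1 to 2 in BMMCs against GMPs in either genotype (Cyba gained without wild-type GMP library 1 or Prss57-/- BMMC library 3). Small log2 differences between genotypes changed sign when libraries were left out. In GMPs Cyba ran from -0.33 to 0.18, Ncf1 from -0.024 to 0.085, Ncf4 from -0.080 to 0.12, Rac1 from -0.0017 to 0.060 and Rac2 from -0.015 to 0.055. In CMPs Cyba ran from -0.077 to 0.65, Ncf1 from -0.17 to 0.20 and Rac2 from -0.11 to 0.088. In BMMCs Cybb ran from -0.23 to 0.23, Cyba from -0.13 to 0.19, Ncf1 from -0.14 to 0.095, Rac1 from -0.024 to 0.047 and Rac2 from -0.16 to 0.22. Interactions ran from -0.72 to 0.047 for Cyba, -0.17 to 0.21 for Ncf1, -0.17 to 0.031 for Ncf4 and -0.087 to 0.13 for Rac2, and Cyba in Prss57-/- GMPs against CMPs from -0.42 to 0.35. The log2 ratio of Rac2 to Rac1 between genotypes ran from -0.060 to 0.052 in GMPs, -0.023 to 0.16 in CMPs and -0.13 to 0.097 in BMMCs, and that of Cybb to Cyba from -0.015 to 0.40, -0.31 to 0.72 and -0.54 to 0.046.

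Other settings moved few calls. limma voom with sample quality weights called 2 subunits in BMMCs against GMPs in both genotypes (Cyba at 1.11 and 1.33), and an adjusted p under 0.05 without a fold limit called 5 and 3. With weights the genotype differences in GMPs were -0.026 for Cybb, -0.043 for Ncf1 and -0.061 for Ncf4, those in BMMCs 0.12 for Cybb, 0.13 for Cyba, 0.051 for Ncf1 and -0.095 for Rac2, and the interactions of Ncf1 and Rac2 -0.17 and -0.043. limma voom without weights gave -0.016 for Ncf1 and -0.012 for Rac2 between genotypes in CMPs, dropping the count filter -0.0060 for Rac2 there, and DESeq2 and RLE scaling -0.0044 and -0.0042 for its interaction. Scaling by library size, which moved the median of all genes to -0.16 in wild-type GMPs against CMPs and to -0.19 and -0.18 in BMMCs against GMPs, gave genotype differences in CMPs of -0.0067 for Ncf1, -0.0099 for Ncf4 and -0.057 for Rac2, an interaction of 0.039 for Ncf4, -0.087 for Rac1 in wild-type GMPs against CMPs, and -0.035 and -0.058 for Rac1 in BMMCs against GMPs. It called 764 genes higher and 1228 lower in wild-type GMPs (940 and 978 with TMM) and 408 and 701 in Prss57-/- GMPs (604 and 655 with TMM). Genes called in GMPs against CMPs numbered 3391 with weights against 1918 in wild-type cells, and in Prss57-/- cells 2530 with weights, 2156 with DESeq2, 2307 with all 26 libraries and 785 to 2266 with a library left out (fewest without GMP library 3, next without GMP library 2 and CMP library 3, and most without CMP library 1), against 1259. The cause was not tested.

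Libraries with the same number were not treated as pairs, since in no comparison did every same-numbered pair exceed a correlation of 0.1. The correlations were -0.23 to 0.11 between genotypes in GMPs and -0.13 to 0.25 in CMPs. In GMPs against CMPs they were 0.0050 to 0.21 in wild-type and 0.021 to 0.45 in Prss57-/- cells. Their means there, 0.110 and 0.152, lay above those of libraries with different numbers, -0.038 and -0.049. Whether same-numbered GMP and CMP libraries are paired was not tested. With the replicate number as a block, 0 subunits were called in Prss57-/- BMMCs against GMPs (Cybb 2.54, edgeR adjusted p = 0.0299), Ncf1 and Rac2 were -0.021 and -0.0068 between genotypes in CMPs and Cyba 0.022 in Prss57-/- GMPs against CMPs, and no other subunit's call changed. Cybb in CMPs rested on the fewest reads of the subunits, 140 to 704 a library, and its spread there was 23.5% and 38.6% of the mean in wild-type and Prss57-/- cells.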
